A study of Mus musculus with 8 samples.

Results

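The 36 genes described here are 6 cyclin-dependent kinase (CDK) inhibitor genes (*Cdkn2a* to *Cdkn2d*, *Cdkn1a* and *Cdkn1b*, without *Cdkn1c*), *Trp53* with its main regulators, and established p53 target genes, out of 20926 genes in the RNA-seq table. The list was chosen by gene name, to ask whether the higher *Cdkn2a* value in these libraries goes with activation of p53 targets. It was therefore selected on a measured value of this same contrast, that of *Cdkn2a*, which is given as a description. Its call in limma enters the counts over the 36 genes, and nothing is read from it. The other 35 genes entered by their known function, and their counts below are set beside the same counts over all genes and support nothing on their own. All 36 genes were found, and all 36 passed the filter on low values (4 or more libraries at 1 or above), *Cdkn2a* only through its values in the mutant libraries.

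RNA was taken from molars of mice at postnatal (PN) day 3 after the epithelium had been dissected away, with 4 control libraries (*Ezh2 fl/fl*, floxed *Ezh2* and no Cre) and 4 libraries from *Osr2-Cre;Ezh2 fl/fl* mice, called mutant libraries below. *Ezh2* encodes the enzyme of Polycomb repressive complex 2 that methylates histone H3 at lysine 27, and *Osr2-Cre* is a Cre allele knocked into the *Osr2* gene, which acts in the dental mesenchyme and not in the dental epithelium. The labels give the strain as C57BL/6, while the methods of the study describe a mixed background. By the study's methods mice of either sex were used. The sex behind each library, and whether it is 1 animal or a pool, are not given in the sources used here, so p-values measure the spread between these libraries.

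As background, *Cdkn2a* makes 2 unrelated proteins from separate first exons. Ink4a binds the D-type cyclin kinases Cdk4 and Cdk6 and keeps the retinoblastoma protein active, and Arf binds Mdm2, the ligase that marks p53 for destruction. When p53 accumulates it raises the transcription of genes for cell cycle arrest, apoptosis, DNA repair and metabolism, among them *Cdkn1a* and *Mdm2* itself. The *Cdkn2a*–*Cdkn2b* locus is a classical site of Polycomb repression.

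Values are normalized reads per gene with no correction for gene length. Libraries held an estimated 48.3 to 68.8 M reads. Each log2 fold change is the mutant mean of log2(value + 1) minus the control mean, a scale on which changes of low genes appear too small. Adjusted p-values are from limma over the 14854 genes that passed the filter. The targeted gene, *Ezh2*, measured 55.0, 38.3, 39.6 and 39.0 across control libraries 1 to 4. Mutant libraries 1 to 4 measured 35.2, 30.1, 23.2 and 36. The groups did not overlap (p = 0.0286 in a two-sided exact permutation test, as small as 4 against 4 libraries can give), and the limma adjusted p was 0.235. With 3 enamel transcripts, described with *Cdkn2b*, as a covariate the limma adjusted p of *Ezh2* was 0.0274, and over all alternatives it ranged from 0.0274 to 0.657. *Ezh2* transcripts were present in all 4 mutant libraries, and fewer cells with the transcript and less transcript per cell cannot be told apart in such bulk samples. A value per gene also does not separate transcript of an intact allele from any transcript of a recombined allele. By immunofluorescence the study detected no Ezh2 protein in molar mesenchyme of newborn mutant mice, and it expected *Ezh2* to persist in their epithelium. These values therefore do not measure how complete the deletion was, and the part of epithelial cells in them was not tested further.

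The INK4 genes encode inhibitors that bind Cdk4 and Cdk6. *Cdkn2a* (minus strand, chr4:89274471-89294653 of mm10) had values of 0.122, 0.148, 0.155 and 0.122 in the control libraries, from an estimated 6, 10, 8 and 7 reads. In the mutant libraries its values were 1.914, 1.501, 1.881 and 2.233, from an estimated 100, 98, 132 and 172 reads. Every mutant library lay above every control library, and the spread within each group was small beside the distance between them. Control libraries averaged 0.137 ± 0.0171 and mutant libraries 1.88 ± 0.299 (SD, n = 4), which is 13.8 times the control mean. On the log2 scale the fold change was 1.34, and because the values are low it depended on the pseudocount, with 3.06 at a pseudocount of 0.1 and 0.42 at a pseudocount of 5. Per kilobase of exon, *Cdkn2a* was the lowest of the 36 genes in the control libraries, at 0.117.

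*Cdkn2b*, the neighbouring gene, lies 11645 bases from *Cdkn2a* on the same strand (chr4:89306299-89311039). Its values were 0.417, 0.939, 0.911 and 1.51 in control and 1.84, 1.06, 2.81 and 1.04 in mutant libraries. The groups overlapped: control library 4 lay above mutant libraries 2 and 4. The log2 fold change was 0.45 (SE 0.23, 95% interval -0.072 to 0.97, limma adjusted p = 0.478). With a covariate made of 3 enamel genes (*Amelx*, *Ambn* and *Enam*, averaged on the log2 scale) it was 0.74 with a limma adjusted p of 0.0368, while over all alternatives the adjusted p ranged from 0.0368 to 0.805. In the covariate fit 2.03% of all genes were called. Over the alternatives the log2 fold change of *Cdkn2b* ranged from 0.12 (array weights) to 0.78 (pseudocount of 0.1). It was 0.26 without mutant library 3. *Cdkn2c* had means of 24.6 ± 1.64 in control and 28.1 ± 3.17 in mutant libraries (SD, n = 4). *Cdkn2d* had means of 12.9 ± 1.21 and 13.7 ± 1.97 (SD, n = 4). Neither *Cdkn2c* nor *Cdkn2d* passed the limma test, and both groups of each gene overlapped.

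The CIP/KIP genes encode inhibitors of a wider range of CDKs, and *Cdkn1a* is the p53 target through which p53 arrests the cell cycle. *Cdkn1a* (plus strand, chr17:29090976-29100727) had values of 124.5, 152, 208 and 218.8 in control and 145.2, 103.1, 196 and 112.7 in mutant libraries. Mutant library 3 stood with control libraries 3 and 4, and the other mutant libraries stood with or below control libraries 1 and 2. Its log2 fold change was -0.34 (SE 0.23, 95% interval -0.86 to 0.17, limma adjusted p = 0.633), so the upper bound of the interval was 0.17 on the log2 scale. *Cdkn1b*, which is not a classical p53 target, had means of 77.1 ± 6.29 and 79.2 ± 13.2 (SD, n = 4). Per kilobase of exon, *Cdkn1a* at 49.5 was higher in control libraries than the other 5 CDK inhibitors among the 36 genes, and *Cdkn1b* followed at 16.9. *Cdkn1c*, a CIP/KIP gene outside the 36, was higher still at 206.0.

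**Figure D1:**
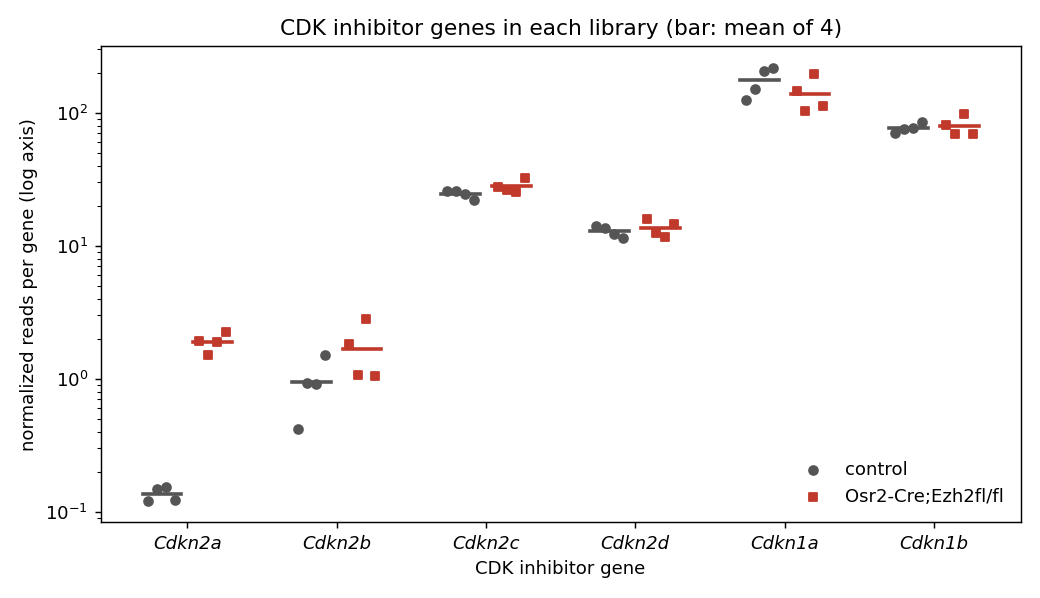
Normalized reads per gene (log axis) of the 6 CDK inhibitor genes among the 36, with 1 point for each library and a bar at the mean of 4; control libraries are grey circles and *Osr2-Cre;Ezh2 fl/fl* libraries red squares. The *Cdkn2a* groups lie apart, at 0.122 to 0.155 against 1.501 to 2.233, and the groups of the other genes overlap.

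*Trp53* itself (plus strand, chr11:69580359-69591873) had values of 59.2, 61.3, 61.2 and 58.1 in control and 73.8, 60.0, 49.6 and 64.5 in mutant libraries. The 4 control values were close together, and the mutant values spread to both sides of them. The log2 fold change was 0.034 (95% interval -0.21 to 0.28, limma adjusted p = 0.951). *Mdm2*, both the ligase of p53 and its target, had values of 39.5, 38.6, 42.8 and 48.1 in control and 42.1, 33.9, 54.8 and 35.1 in mutant libraries (minus strand, chr10:117688875-117710758). Mutant library 3 was the highest of the 8 and mutant library 2 the lowest. The log2 fold change of *Mdm2* was -0.047 (95% interval -0.37 to 0.28, limma adjusted p = 0.951). *Mdm4*, an inhibitor of p53 related to *Mdm2*, had means of 115.8 ± 19.2 and 127.2 ± 22.4 (SD, n = 4). These values are transcript levels, and p53 protein, which is set largely by its turnover, was not measured.

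Of the 29 p53 target genes (27 in the target lists, with *Cdkn1a* and *Mdm2*), 0 were called higher and 0 lower in limma at an adjusted p under 0.05. Over all genes, 1.56% were called higher and 0.512% lower (2.07% in either direction). The count over the 36 genes was 1 higher and 0 lower, and that 1 was *Cdkn2a*, on whose value the list was selected, so nothing is read from it. At an unadjusted p under 0.05, 1 target was higher (*Ddb2*) and 2 were lower (*Btg2* and *Ephx1*), where 1229 of all 14854 genes were higher and 724 lower (13.1% in either direction). Of the 29 targets, 15 had a positive and 14 a negative log2 fold change, beside 54.07% positive over all genes tested. The median of the 29 targets was 0.0070, beside 0.013 over all genes tested, and its sign was not stable. It was negative with median-of-ratios scaling (-0.021, beside -0.017 over all genes, with 12 of 29 positive). With quantile scaling it was -0.019, beside -0.0037 over all genes, with 12 of 28 positive. With a filter at 10 it was -0.0077, beside 0.0030 over all genes, with 9 of 19 positive. It was highest with the enamel covariate (0.091, beside 0.016 over all genes, with 19 of 29 positive). The upper 95% bounds of the 29 targets ranged from -0.17 to 0.58 on the log2 scale, with a median of 0.27. The adjusted p-values of the 35 genes other than *Cdkn2a* ranged from 0.0904 to 0.995. With limma array weights, which gave most weight to mutant library 4, 10 more of the 36 genes were called: *Cdkn2c*, *Ccng1*, *Sesn1* and *Zmat3* higher and *Cdkn1a*, *Btg2*, *Plk2*, *Gadd45a*, *Ak1* and *Ephx1* lower. In that fit 27.2% of all genes tested were called, and no result about these genes is read from the count. A p that misses the threshold does not show that a gene was the same in both groups.

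Among the 9 targets for growth arrest and signalling, 4 had a positive and 5 a negative log2 fold change. *Ccng1*, which encodes cyclin G1 and is among the most regular p53 targets, had values of 46.6, 41.3, 43.7 and 46.8 in control libraries (minus strand, chr11:40748552-40755311). In mutant libraries its values were 46.7, 49.6, 45.6 and 53.1. Control libraries 1 and 4 lay within the range of the mutant libraries, and the log2 fold change was 0.13 (95% interval -0.041 to 0.29, limma adjusted p = 0.553). *Btg2*, an antiproliferative gene, had means of 15.8 ± 2.92 and 11.2 ± 1.38 (SD, n = 4). *Gadd45a*, a stress response gene, had means of 8.78 ± 2.55 and 6.36 ± 1.64 (SD, n = 4). *Zmat3*, an RNA-binding p53 target, had means of 23.2 ± 2.29 and 28.1 ± 5.75 (SD, n = 4). The sestrins, which restrain growth signalling under stress, had group means of 42.0 and 45.6 for *Sesn1* and of 15.5 and 12.8 for *Sesn2*. For *Plk2*, *Phlda3* and *Trp53inp1* the control and mutant means were 36.2 and 33.3, 27.6 and 25.8, and 86.1 and 92.7.

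Among the 9 targets for apoptosis, 6 had a positive and 3 a negative log2 fold change. *Bax*, which permeabilizes mitochondria, had means of 42.8 ± 2.47 and 45.7 ± 5.41 (SD, n = 4). The BH3-only genes *Bbc3* and *Pmaip1* had group means of 7.49 and 6.32, and of 0.867 and 1.20. The death receptor genes *Fas*, *Tnfrsf10b* and *Eda2r* had control means of 1.70, 8.22 and 1.14 and mutant means of 1.92, 8.49 and 1.56. *Apaf1*, the core of the apoptosome, had means of 30.9 and 30.3. *Aen* and *Ei24* had control means of 34.4 and 129.7 and mutant means of 34.3 and 135.8. None of these 9 genes passed an unadjusted p of 0.05 in limma, where 13.1% of all genes did in either direction.

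Among the 4 targets for DNA repair and nucleotide supply, *Ddb2*, which recognizes ultraviolet damage, had means of 10.5 ± 0.989 and 12.8 ± 1.48 (SD, n = 4). *Xpc*, of the same repair pathway, had means of 25.2 and 25.7. *Polk*, a translesion polymerase, had means of 8.13 and 8.76, and *Rrm2b*, a ribonucleotide reductase subunit, 12.5 and 12.4. Of the 5 targets for metabolism and other functions, *Ephx1*, which encodes an epoxide hydrolase (minus strand, chr1:180976210-181020904), had values of 6.83, 7.51, 6.58 and 7.60 in control libraries. Its values in mutant libraries were 5.17, 5.32, 4.48 and 5.87. All 4 mutant values lay below all 4 control values, as for 2.77% of all genes tested, and all mutant values lay above the control values for 5.76%. The log2 fold change of *Ephx1* was -0.39 (95% interval -0.61 to -0.17, limma adjusted p = 0.0904). GENCODE lists *Gm36961* on the same strand within the *Ephx1* interval. The other 4 genes had control means of 6.40 (*Tigar*), 43.2 (*Rps27l*), 27.8 (*Ak1*) and 8.28 (*Dcxr*). In the mutant libraries these means were 6.26, 45.5, 24.03 and 8.40.

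**Figure D2:**
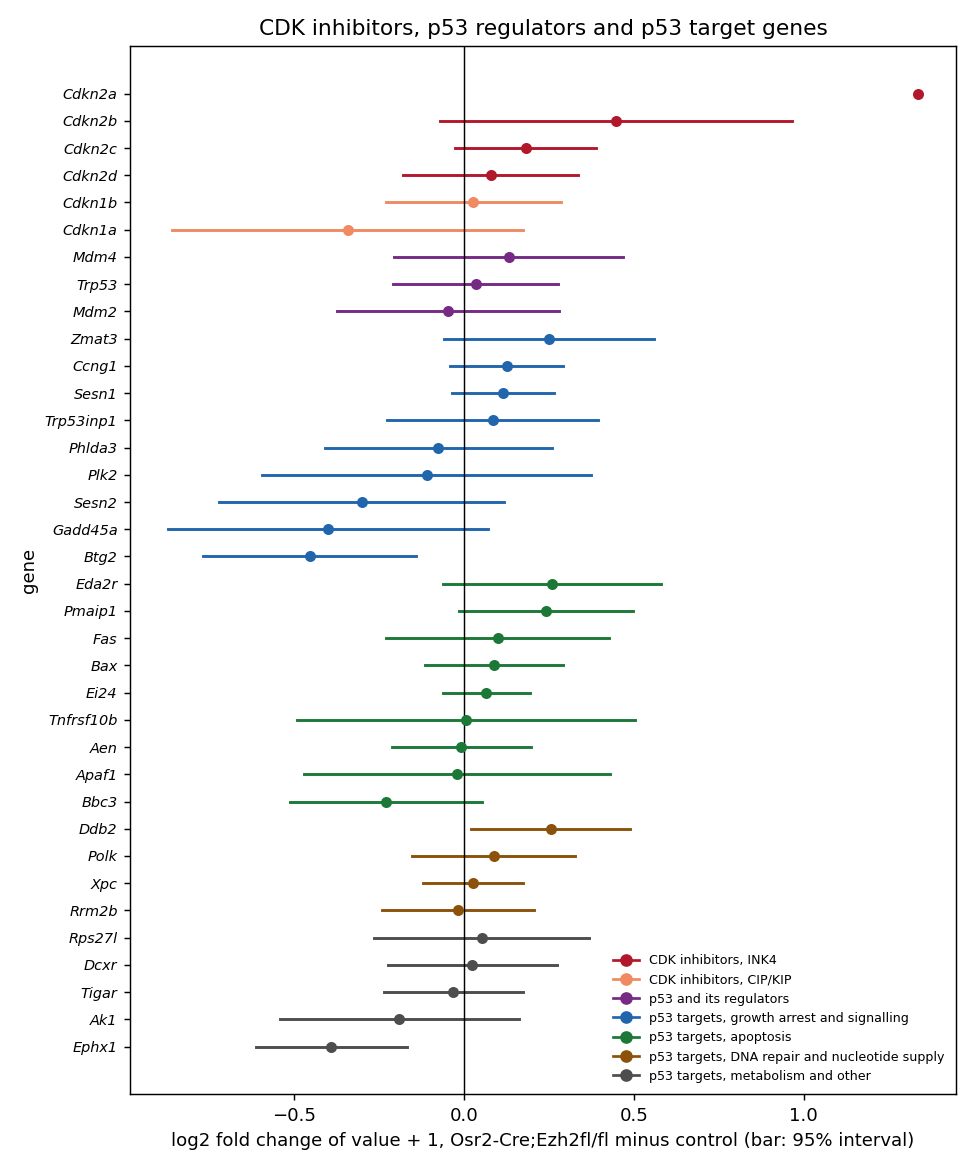
Log2 fold change of value + 1 (*Osr2-Cre;Ezh2 fl/fl* minus control) of the 36 genes, with 95% intervals from limma (none for *Cdkn2a*, which selected the list) and colors for the 7 groups of genes. *Cdkn2a* lies at 1.34, the other 35 genes lie between -0.45 and 0.45, and the 29 p53 targets lie on both sides of 0.

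The libraries differed in their content of epithelial transcripts. All 8 markers of dental epithelium and ameloblasts were present in all 8 libraries, although the epithelium had been removed. Summed over the list, control libraries 1 to 4 reached 2359, 4372, 18460 and 31930, and the sums were 3453, 2399, 13430 and 2335 across mutant libraries 1 to 4. The most abundant was the enamel matrix gene *Amelx*, with 349, 1377, 9733 and 16250 in control and 806.8, 375.6, 7818 and 315.9 in mutant libraries. Control libraries 3 and 4 and mutant library 3 were high, and *Cdkn1a* was highest in the same 3 libraries. With the enamel transcripts as a covariate the log2 fold change of *Cdkn1a* was -0.018 (limma adjusted p = 0.944), and with array weights it was -0.62 (limma adjusted p = 0.00959). Over all alternatives the adjusted p of *Cdkn1a* ranged from 0.00959 to 0.986. In the 5 libraries with *Amelx* under 5000, chosen after the values were seen, the log2 fold changes were 1.34 for *Cdkn2a* and -0.21 for *Cdkn1a*, and 0 of the 36 genes were called. The median of the 29 p53 targets was 0.048 there, beside 0.010 over all genes, with 17 positive. Over all genes that fit called 8 of 14854 (0.0539%). The part of epithelial cells in the *Cdkn1a* values was not tested further.

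**Figure D3:**
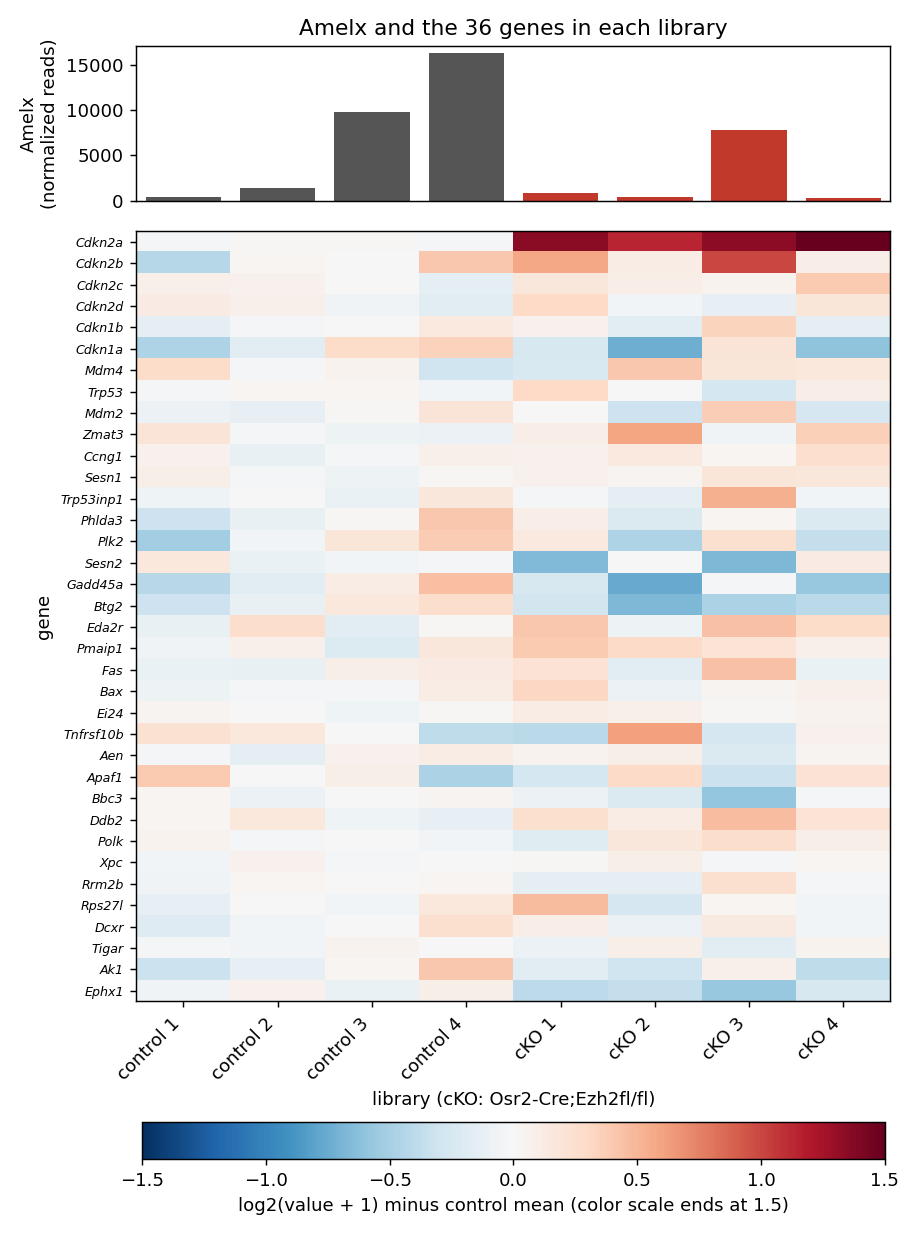
Upper bars give normalized reads of *Amelx* in each library (control grey, *Osr2-Cre;Ezh2 fl/fl* red, axis from 0). The heat map gives log2(value + 1) minus the control mean for the 36 genes, and shows *Cdkn2a* high in all 4 mutant libraries and *Cdkn1a* highest in control libraries 3 and 4 and mutant library 3, where *Amelx* was 9733, 16250 and 7818.

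Markers of other cell types were compared in the same way, and 0 of the markers tested in the lists given here were called in limma. The dental mesenchyme list of 6 genes, led by *Vim*, summed to 1988 to 2317 in control and 1811 to 2264 in mutant libraries. Of these 6 genes, 2 were higher at an unadjusted p under 0.05 (*Msx1* and *Twist1*), and 3 of 6 had a positive log2 fold change. The 4 odontoblast genes, led by *Col1a1*, summed to means of 9985 and 7885, with 2 of 4 lower at an unadjusted p under 0.05 (*Dspp* and *Phex*). In mutant libraries 1 to 4 *Dspp* was 770.2, 556.1, 2328 and 798.7, and *Phex* 48.1, 36.9, 91.6 and 50.4. Control libraries ranged from 1329 to 2799 (*Dspp*) and from 79.95 to 127.4 (*Phex*). For both genes mutant library 3, where *Amelx* was also high, lay within the control range. The part of epithelial content in this was not tested. All 4 odontoblast genes had a negative log2 fold change, with a median of -0.67. Their median deviation from the control mean was -0.27 to 0.19 in control and -0.84 to -0.37 in mutant libraries. The 4 endothelial genes, led by *Cdh5*, summed to 299.2, 338.5, 323.8 and 326.4 in control and 279.1, 281.3, 261.9 and 261.9 in mutant libraries, so that all mutant sums were below all control sums. Of these endothelial genes, 3 were lower at an unadjusted p under 0.05 (*Cdh5*, *Kdr* and *Pecam1*), and in 2 of the 4 all mutant values lay below all control values, as for 2.77% of all genes. Over all 14854 genes, 1229 were higher and 724 lower at an unadjusted p under 0.05, which is the comparison for each count in these lists. The genes named by an unadjusted p in the marker and pathway lists were chosen after their values were seen. Summed means were 104.9 and 109.5 for the 5 macrophage and leukocyte genes (led by *Csf1r*), and 355.4 and 448.6 for the 5 erythroid genes (led by *Hbb-bs*). The erythroid sums were 302.1, 433.2, 694.2 and 365.1 in mutant libraries 1 to 4 and 254.8 to 450.2 in control libraries, so mutant library 3 was highest. For 4 skeletal muscle genes (led by *Acta1*) the control sums were 5.35, 4.82, 5.05 and 25.95. The mutant sums were 8.05, 5.18, 1.29 and 4.08. Control library 4 stood apart above the other libraries, and mutant library 3 lay below them. In the macrophage, erythroid and muscle lists 0 of the genes tested had an unadjusted p under 0.05. Only 2 of the 4 muscle genes were tested, without *Ckm* and *Myh3*. No gene of these lists was at or under 3 estimated reads in all 8 libraries. The part of these cell types in the values of the 36 genes was not tested.

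Other genes of the pathways were counted from lists named by function. Of 8 genes for the retinoblastoma protein family and the D-type cyclin kinases that Ink4a inhibits, 0 were called in limma and 2 were higher at an unadjusted p under 0.05 (*Ccnd3* and *Cdk6*), where 1.56% of all genes were called higher and 1229 of 14854 were higher at an unadjusted p. The most abundant, *Ccnd1*, *Ccnd2* and *Cdk4*, had control means of 395.1, 339.1 and 296.7 and mutant means of 404 (*Ccnd1*), 384.4 (*Ccnd2*) and 303 (*Cdk4*). Of 20 E2F target genes, which are transcribed when the retinoblastoma protein is inactivated, 0 were called and 0 had an unadjusted p under 0.05. Their median log2 fold change was -0.034, with 6 positive and 14 negative. Mutant library 3 alone was low, as the median deviation of the 20 genes from the control mean was 0.097, 0.0042, -0.36 and 0.14 in mutant libraries 1 to 4 and -0.011 to 0.039 in control libraries. The proliferation marker *Mki67* had means of 369.2 ± 59.2 and 322.9 ± 78.1 (SD, n = 4), *Top2a* 266.9 ± 35.5 and 230.6 ± 60.6, and *Rrm1* 150.3 ± 3.82 and 142.8 ± 21.9. *Mki67* and *Top2a* were lowest in mutant library 3, at 230 and 147.2.

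Upstream of p53, 0 of 10 relatives, kinases and modifiers were called, and 1 was lower at an unadjusted p under 0.05 (*Trp63*). Over all genes, 2.07% were called in either direction, and at an unadjusted p 1229 of 14854 were higher and 724 lower. *Trp63* had values of 168.2, 204.6, 239.3 and 270.0 in control and 199.1, 129.7, 180.5 and 150.2 in mutant libraries. The epithelial marker *Krt5* had 863.2, 1100, 1505 and 1992 in control and 1127, 827.1, 1044 and 853.9 in mutant libraries. The part of epithelial cells in the *Trp63* values was not tested. Of a further 9 p53 targets, 0 were called and 1, *Ptprv*, was higher at an unadjusted p under 0.05, and *Gdf15* was not analysed here. The 3 most abundant, *Perp*, *Pltp* and *Trp53i11*, had control means of 438.6, 69.07 and 41.28 and mutant means of 346.4 (*Perp*), 62.17 (*Pltp*) and 41.57 (*Trp53i11*). *Perp* was highest in control libraries 3 and 4 and mutant library 3, where *Amelx* was also high. A pair of genes outside the rule for naming were picked for their values, so they support nothing on their own. *Ptprv*, which encodes a receptor-type tyrosine phosphatase, had values of 29.7, 21.4, 17.1 and 14.3 in control and 25.4, 59, 39.8 and 43.6 in mutant libraries. Mutant library 1 lay below control library 1 and the other mutant libraries lay above all controls. The difference on the log2 scale was 0.98 (95% interval 0.38 to 1.58, limma adjusted p = 0.115), and its interval reaches beyond the upper bounds of the 29 targets. *Trp53cor1*, the other gene of this pair, went the other way, with all mutant values (0.929 to 1.16) below all control values (1.185 to 1.651), a log2 fold change of -0.21 and a limma adjusted p of 0.383. Of the 2 other CDK inhibitors and binders, 0 were called and 1 was higher at an unadjusted p under 0.05 (*Cdkn1c*). *Cdkn1c* had means of 420 ± 81.9 and 537.9 ± 43.0 (SD, n = 4, limma adjusted p = 0.254), and *Cdkn3* had means of 6.42 and 7.08.

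Of 10 regulators of the *Cdkn2a* locus, 1 was called in limma, and *Cbx8* and *Ets2* were also higher at an unadjusted p under 0.05. Over all genes 1.56% were called higher, and 1229 of 14854 were higher at an unadjusted p. *Bmi1*, a subunit of Polycomb repressive complex 1 and a known repressor of *Cdkn2a*, was upregulated. Its values were 50.7, 48.6, 52.7 and 47.5 in control and 95.05, 108.3, 98.9 and 110.9 in mutant libraries. The groups did not overlap, and the log2 fold change was 1.03 (SE 0.071, 95% interval 0.88 to 1.19, limma adjusted p = 0.00032). Over the alternatives its log2 fold change ranged from 0.98 to 1.12, with adjusted p-values from 2.14e-06 to 0.0497.

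Promoter windows from RefSeq (GRCm38, 250 bases before to 50 bases after each start) were matched to 29 of the 36 genes, in 42 windows. *Ddb2*, *Pmaip1*, *Rrm2b*, *Tnfrsf10b*, *Trp53inp1*, *Xpc* and *Zmat3* had no entry. The p53 response element, a pair of 10-base half-sites 0 to 13 bases apart, was searched with at most 1 mismatch and with the fixed C and G of each half-site kept. The consensus is its own reverse complement, so a search of 1 strand covers both. It was found in 3 of these 42 windows and in 0.627% of all 32851 promoter windows. Bases outside the windows were not searched, so a gene without a match here may hold an element elsewhere. The 3 genes were *Ccng1*, *Rps27l* and *Cdkn1a*, all among the p53 targets, and they are shown because their values stand beside that of *Cdkn2a* with none of them called. Each line gives 40 bases of the coding strand, 5′ to 3′, with the paired half-sites in capitals, 1 mismatch in each.

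*Cdkn1a* (upstream start, chr17:29090918-29090957, plus strand): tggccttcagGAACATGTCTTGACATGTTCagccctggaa

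*Ccng1* (chr11:40755452-40755491, minus strand): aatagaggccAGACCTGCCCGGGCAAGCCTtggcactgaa

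*Rps27l* (downstream start, chr9:66946286-66946325, plus strand): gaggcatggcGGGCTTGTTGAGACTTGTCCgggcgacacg

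The matches end 31 bases (*Cdkn1a*), 175 bases (*Ccng1*) and 97 bases (*Rps27l*) before these starts of transcription. *Cdkn1a* and *Rps27l* each have 2 starts, and the *Rps27l* match lies after its upstream start, where the gene begins. In *Cdkn1a* a second pair with 0 mismatches and a spacer of 12 bases (chr17:29090906-29090937) overlaps the one shown. A match describes these letters and shows no binding. The log2 fold changes of the 3 genes were -0.34, 0.13 and 0.052.

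*Cdkn2a* has 2 promoter windows, since its first exons for Arf and for Ink4a start 12427 bases apart. The deposited value sums both transcripts, so it does not say which of them was higher in the mutant libraries. The windows differ in their CG dinucleotides, the letters that mark the CpG islands often bound by Polycomb complexes. The 300 bases at the upstream start, that of Arf, hold 45 CG, more than 98.1% of all promoter windows. The window at the downstream start, that of Ink4a, holds 12, more than 60.4%. No p53 response element was found in either window, and the rest of the locus was not searched. The 250 bases before each start follow, with CG in capitals.

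*Cdkn2a*, Arf start (chr4:89294620-89294869, minus strand): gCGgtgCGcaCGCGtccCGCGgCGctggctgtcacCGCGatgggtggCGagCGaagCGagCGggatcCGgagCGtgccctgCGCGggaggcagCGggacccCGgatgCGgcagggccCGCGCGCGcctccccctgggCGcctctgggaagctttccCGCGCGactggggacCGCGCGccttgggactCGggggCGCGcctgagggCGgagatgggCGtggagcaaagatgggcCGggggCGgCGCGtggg

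*Cdkn2a*, Ink4a start (chr4:89282193-89282442, minus strand): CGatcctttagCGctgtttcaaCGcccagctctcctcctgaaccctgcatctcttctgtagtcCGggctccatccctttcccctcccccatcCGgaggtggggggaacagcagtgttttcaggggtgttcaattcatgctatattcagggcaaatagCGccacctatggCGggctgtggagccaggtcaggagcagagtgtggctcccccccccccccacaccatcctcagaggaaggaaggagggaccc

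The genes also differed in how much they varied between libraries of 1 group. The within-group SD of log2(value + 1) ranged from 0.044 for *Ei24* to 0.40 for *Cdkn1a*. Its median was 0.18 over the 36 genes and 0.21 over the 29 p53 targets, beside 0.15 over all genes tested. For each library, the median deviation of the 29 targets from the control mean was -0.053, -0.031, -0.0074 and 0.083 in control libraries 1 to 4. In mutant libraries 1 to 4 it was 0.023, -0.082, 0.034 and 0.027. The mutant values lay within the control range except in library 2, which lay below it.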

How the data were processed

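RNA-seq values of 4 control and 4 *Osr2-Cre;Ezh2 fl/fl* libraries were taken from 1 table. The submitters' processing notes name CASAVA 1.8.2, STAR 2.5.3a, Partek and mm10, while the study's methods name TopHat and RPKM. The methods give 4 samples per group but also speak of 3 pairs, without saying which libraries these are, and all 8 libraries were used. The values deposited by the authors were treated as a signal, normalized reads per gene, because they carry no length factor and are not whole reads. Dividing by the smallest value of a library and subtracting 1 gave estimated reads, of which 62.6% of those under 20 were whole within 0.02, so no test for counts was run. Control libraries 1 to 4 held an estimated 50.4, 66.8, 52.8 and 61.9 M reads, and mutant libraries 1 to 4 an estimated 48.3, 60.3, 64.1 and 68.8 M. Whether counting used strand is not given in the sources used here, so reads of overlapping or antisense genes cannot be told apart.

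limma 3.58.1 (R 4.3.3, lmFit and eBayes with trend) was fitted to log2(value + 1) for genes that reached 1 in 4 or more libraries, with Benjamini-Hochberg adjustment over all of them, after it was tested on simulated data. Members and gene lists were chosen with earlier results of these data known. Full values were given for *Cdkn2a*, *Cdkn2b*, *Cdkn1a*, *Trp53*, *Mdm2*, *Ccng1*, members with an adjusted p under 0.05 and members whose groups did not overlap, and other members by means, ranges or counts. Pathway lists were given by counts, called genes and at most the 3 most abundant by the rule fixed beforehand. *Ptprv*, *Trp53cor1* and the genes named by an unadjusted p fall outside that rule and were chosen after their values were seen. Values of some listed marker and pathway genes are not reported here. Coordinates and exon lengths are from GENCODE mouse release M21, and promoters from RefSeq (Python 3.11.15, pandas 2.3.3, matplotlib 3.10.9). Alternatives were pseudocounts of 0.1 and 5, no filter and a filter at 10, median-of-ratios and quantile scaling, no trend, array weights, the replicate block, an enamel covariate, each library left out, and, chosen after the data were seen, the 5 libraries with *Amelx* under 5000.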

Additional observations from a re-analysis of the deposited data

Results flagged for a closer look

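Over 76 groups of 4 libraries (the 36 genes, *Bmi1* and *Ezh2*, each in both genotypes), 3 held a library whose gap to the nearest of the others was large for the range of the group, where chance gives about 3.8. *Aen* was 29.4 in library 3 of the *Osr2-Cre;Ezh2 fl/fl* group and 35.4 to 36.6 in the other mutant libraries. *Trp53inp1* was 124.4 in the same library and 78.4 to 84.7 in the others. *Ezh2* was 55.0 in control library 1 and 38.3 to 39.6 in the other control libraries.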

How the results depend on the processing

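Over all genes, 232 were called higher and 76 lower. The counts were 88 and 31 with the filter at 10, 2165 and 1875 with array weights, and 8 and 0 in the 5 libraries with *Amelx* under 5000 (chosen after the data were seen, with 2 control and 3 mutant libraries). With the replicate block they were 64 and 9. The replicate numbers gave correlations of -0.34, -0.077, 0.21 and -0.43 between deviations of same-numbered libraries, and only library 3 correlated best with its own number. The deviations include the uneven enamel transcripts, so this check cannot show whether same-numbered libraries are pairs. Same-numbered libraries were not taken as pairs, because the sources used here do not say which libraries pair. Leaving out each library gave 108 to 332 higher and 21 to 97 lower. The counts moved by over 1.5 times without control library 2 (133 and 25), 3 (108 and 21) or 4 (131 and 44) and without mutant library 2 (138 and 38) or 4 (133 and 33). The cause was not tested, except that fewer genes or libraries enter some fits.

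Of the 36 genes, 1 was called higher (*Cdkn2a*, whose value selected the list, so the count is a description) and 0 lower. The count called higher was 0 with the filter at 10, which leaves out *Cdkn2a*, 0 in the 5 libraries with low *Amelx*, 2 with the enamel covariate and 5 with array weights. With array weights, which gave mutant library 4 a weight of 9.66 and the others 0.206 to 2.31, 6 were called lower. The log2 fold change of *Cdkn2a* was 3.06 and 0.42 at pseudocounts of 0.1 and 5, 1.47 with array weights and 1.28 to 1.40 without each library. The median of the p53 targets was 0.091 with the enamel covariate and 0.011 to 0.027 without each library. It was negative with median-of-ratios scaling (-0.021), quantile scaling (-0.019) and the filter at 10 (-0.0077). The median over all genes was -0.017, -0.0037 and 0.0030 in these fits.

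The log2 fold changes of the 35 genes other than *Cdkn2a* changed sign in 58 of 653 comparisons with an alternative, in none of which the gene was called. With median-of-ratios scaling these were *Cdkn1b* (-0.0037), *Dcxr* (-0.0038), *Tnfrsf10b* (-0.021) and *Xpc* (-0.0040), and with quantile scaling *Dcxr* (-0.0061) and *Tnfrsf10b* (-0.026). With array weights they were *Aen* (0.054), *Apaf1* (0.18), *Cdkn1b* (-0.12), *Dcxr* (-0.029), *Fas* (-0.084), *Rps27l* (-0.030), *Sesn2* (0.12), *Tigar* (0.040) and *Trp53inp1* (-0.011). With the enamel covariate they were *Ak1* (0.016), *Cdkn2d* (-0.022), *Mdm2* (0.12), *Phlda3* (0.091), *Plk2* (0.17), *Rrm2b* (0.054), *Tnfrsf10b* (-0.19) and *Trp53* (-0.034). In the 5 libraries with low *Amelx* they were *Aen* (0.15), *Cdkn1b* (-0.00022), *Mdm4* (-0.0086), *Phlda3* (0.099), *Plk2* (0.056), *Tigar* (0.048), *Tnfrsf10b* (-0.10) and *Trp53inp1* (-0.030). Without each library the ranges that crossed 0 were -0.055 to 0.062 (*Aen*), -0.18 to 0.11 (*Apaf1*), -0.075 to 0.088 (*Cdkn1b*), -0.039 to 0.10 (*Dcxr*), -0.017 to 0.19 (*Fas*), -0.19 to 0.039 (*Mdm2*) and -0.18 to 0.059 (*Phlda3*). They were -0.28 to 0.016 (*Plk2*), -0.089 to 0.15 (*Rps27l*), -0.10 to 0.024 (*Rrm2b*), -0.071 to 0.017 (*Tigar*), -0.19 to 0.14 (*Tnfrsf10b*), -0.053 to 0.13 (*Trp53*) and -0.063 to 0.16 (*Trp53inp1*). The cause was not tested.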
